A study of Liolophura hirtosa with 16 samples.

Results

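Immature radula teeth were compared with foot muscle in a chiton, Acanthopleura hirtosa, which the sample labels call Liolophura hirtosa. The comparison set the 4 arrays titled as immature radula against the 4 titled as foot muscle, 8 of the 16 arrays of the series. All 16 arrays entered the scaling and limma's estimate of the spread. The columns of the authors' value table gave the identity of each array. The animals were wild adults, 12 in all. Their radulae were cut by the stage of their teeth into immature, iron deposited and calcium deposited sections, and a piece of foot muscle came from the same animals. RNA of 3 animals was combined in each pool, so that each tissue had 4 pools and 4 single-colour arrays, and differences between single animals could not be seen. The immature group is named in the labels as radula sac tissue, so it held the tissue around the newest tooth rows together with whatever teeth it had formed. All groups were untreated. On each array, 2240 probes, 35 to 40 nt long, covered 493 chiton sequences, of which 109 were contigs and 384 were named as single clones. Gene names were not used here because the files pair none with the probes, so a sequence goes by its own name and no known function was attached to it. For the same reason, the 2 tissues were not checked against muscle or radula marker genes.

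The radula is a ribbon of teeth with which molluscs scrape food from rock. New tooth rows form continuously at its closed end, move forward as older rows wear away, and in chitons harden with iron minerals and then with calcium minerals, so the immature section holds rows whose organic scaffold is laid down before mineral enters. Cells around the teeth secrete this scaffold and later carry mineral to it. The foot is the muscular sole on which the animal creeps and clings, and here it was the tissue outside the radula. The comparison asked which transcripts set tissue that builds unmineralized teeth apart from muscle.

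The value table and the scanner files disagreed about 4 arrays. The columns for immature replicates 2 and 4 were constant multiples of the scanner files recorded for calcium replicates 2 and 4, and the reverse. By the table, immature arrays correlated with each other across probes at a Pearson r of 0.973 to 0.990, foot muscle arrays with each other at 0.964 to 0.986, and immature with foot muscle arrays at 0.674 to 0.721. With the scanner files as recorded, immature arrays correlated at 0.745 to 0.979. By the table, that grouping mixes immature and calcium arrays, so every as-recorded difference of immature teeth rests on a mixed group. Probes are not independent replicates, and these values describe the arrays. Results follow the value table. The main counts and the differences of the named sequences are also given without the 4 disputed arrays, which leaves 2 immature, 2 calcium, 4 iron and 4 foot muscle arrays, and with the files as recorded. The median foreground of an array was 237.6 to 426 units in immature teeth and 200.1 to 240.4 units in foot muscle. The files used here hold no background column, so no value could be called above or below background, and folds with a dim value on one side may understate the difference by an unknown amount. In RNA from whole tissue, fewer cells of a type and less RNA per cell cannot be told apart.

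The probes that carry the comparison are printed here 5′ to 3′, as the files give them, with their positions in bases along their own sequence. The first 5 lines show 1 probe from each of the sequences furthest apart between the tissues, Contig[0054] and Contig[0010] (higher in immature teeth) and Contig[0222] and Contig[0113] (lower), with a second probe of Contig[0010] that overlaps the first. Capitals mark the 17 bases that the 2 probes of Contig[0010] share.
Contig[0054], bases 153 to 187: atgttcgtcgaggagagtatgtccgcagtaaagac
Contig[0010], bases 1258 to 1292: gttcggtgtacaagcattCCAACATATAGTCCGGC
Contig[0010], bases 1276 to 1312: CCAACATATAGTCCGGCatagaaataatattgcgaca
Contig[0222], bases 238 to 272: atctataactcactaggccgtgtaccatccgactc
Contig[0113], bases 49 to 83: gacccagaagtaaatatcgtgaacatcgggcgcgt
Leaving out the 4 sequences above, the next 4 lines show the probes that set immature teeth furthest apart from the iron section among those that also differed from foot muscle, 1 probe per sequence, the first pair higher and the second pair lower in immature teeth.
PlateC-D7-5-SMART, bases 485 to 519: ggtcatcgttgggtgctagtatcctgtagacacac
Contig[0067], bases 273 to 307: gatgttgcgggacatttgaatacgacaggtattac
Contig[0154], bases 241 to 275: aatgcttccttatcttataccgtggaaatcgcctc
Plate-A-B12-5-SMART, bases 377 to 411: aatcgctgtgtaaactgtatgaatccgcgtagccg
The next 4 lines show the same for the calcium section, leaving out all 8 sequences above.
Contig[0122], bases 369 to 403: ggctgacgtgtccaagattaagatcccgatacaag
Contig[0147], bases 214 to 248: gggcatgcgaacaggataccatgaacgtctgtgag
Contig[0288], bases 281 to 315: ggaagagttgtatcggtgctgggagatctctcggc
Plate-D-B4-5-SMART, bases 141 to 175: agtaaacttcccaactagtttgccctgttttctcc
The last 2 lines show probes that ran against the other probes of their own sequence.
Contig[0099], bases 867 to 901: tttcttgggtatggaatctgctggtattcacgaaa
Contig[0254], bases 477 to 511: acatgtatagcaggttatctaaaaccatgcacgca

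The largest differences of immature teeth from foot muscle were mostly rises, whereas the number of small falls depended on how the arrays were scaled. A value here is the log2 of a probe's signal over the mean signal of its array, brought to one common distribution over arrays by quantile scaling, and a probe or sequence is called when limma's adjusted p is under 0.05. Of the 2240 probes, 301 were called higher (13.4%) and 457 lower (20.4%) in immature teeth than in foot muscle. The median difference was 2.27-fold among probes called higher and 1.47-fold among those called lower. Over 2-fold, 183 probes were higher and 95 lower, over 8-fold the counts were 40 and 14, and over 64-fold they were 3 and 0. All 4 immature arrays lay above all 4 foot muscle arrays at 286 of the 301 probes called higher and below them at 378 of the 457 called lower. Over all probes, the same separation was seen at 298 probes upward and 426 downward. Under 4 other scalings, probes called lower numbered 117 to 235 and those called higher 210 to 321, and the share of calls that were higher was 52.9% with the deposited values unscaled, 49.5% with the 75th percentile, 68.8% with the median and 68.7% with cyclic loess, against 39.7% here.

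**Figure D1:**
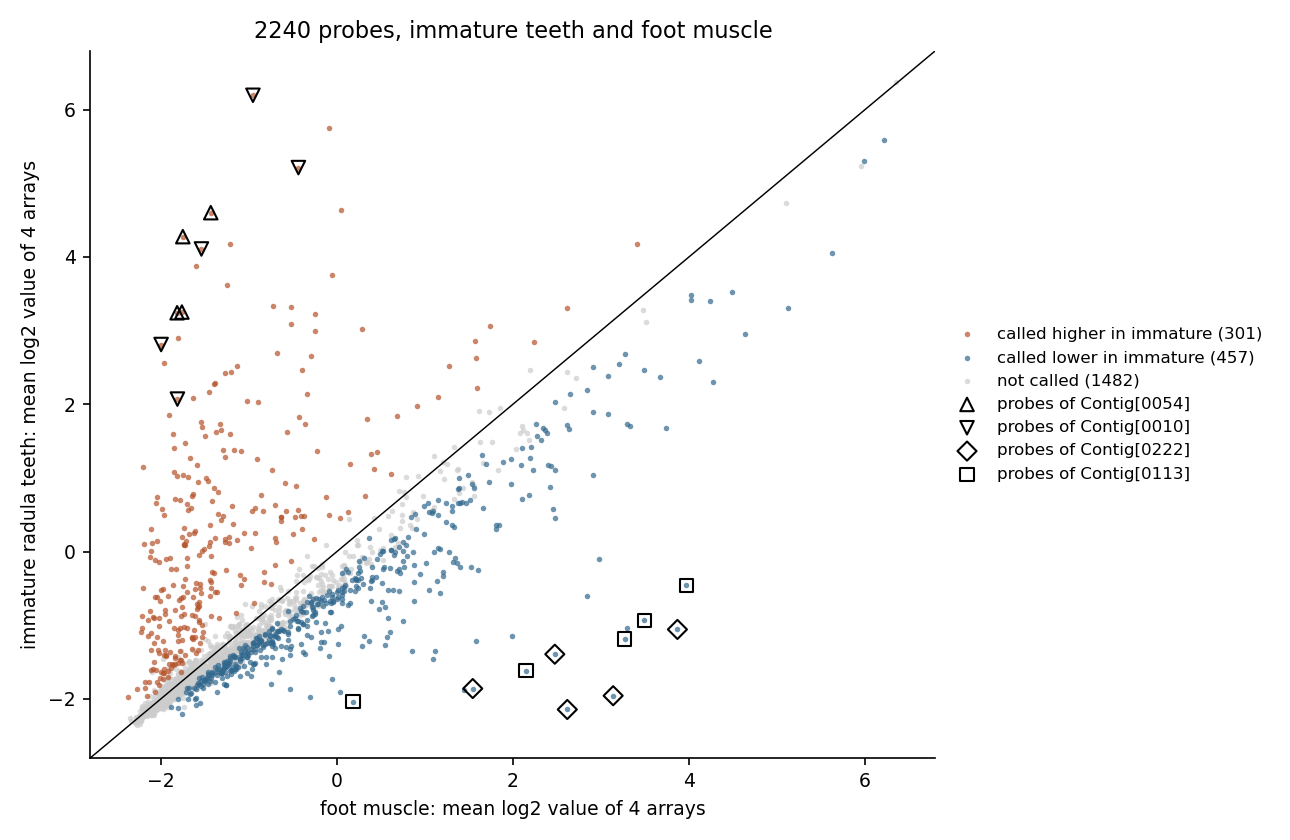
Each point is 1 of 2240 probes, with its mean log2 value over the 4 immature arrays on the vertical axis and over the 4 foot muscle arrays on the horizontal axis, and the line marks equal values. The 301 probes called higher spread far above the line, up to 142-fold on Contig[0010], whereas most of the 457 called lower lie close below it.

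Averaged over the probes of each sequence, 77 of 493 sequences were called higher (15.6%) and 228 lower (46.2%) in immature teeth. Over 2-fold, the counts were 35 higher and 21 lower, and over 16-fold they were 4 and 1. The large rises were mostly on contigs. Of the 35 sequences over 2-fold higher, 25 were contigs and 10 were clones, and of the 21 over 2-fold lower, 11 were contigs and 10 were clones. Over 4-fold, 14 contigs and 2 clones were higher, and 2 contigs and 2 clones were lower. Over 8-fold all 6 higher and both lower sequences were contigs. Of the 109 contigs, 45 were called higher (41.3%) and 44 lower (40.4%), and of the 384 clones 32 were called higher (8.33%) and 184 lower (47.9%). The median difference on the log2 scale was -0.07 over contigs, -0.13 over clones and -0.12 over all sequences. Under the 4 other scalings, 10 to 23 contigs and 29 to 41 clones were called lower, against 44 and 184 here, so both counts depended on the scaling. Contigs called higher numbered 31 to 47 under the same scalings.

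Probes of one sequence usually went the same way. Among the 75 sequences called higher that had at least 2 probes, every probe was called in 41 and every probe had the same sign in 59. Among the 226 called lower, every probe was called in 30, every probe had the same sign in 178, and no single probe reached the threshold in 27. The probes of a sequence called higher spanned a median of 1.30 on the log2 scale, against 0.46 for those called lower. Calls grew with brightness. Of the 560 dimmest probes by mean over the 16 arrays, 13 were called higher and 8 lower, and of the 560 brightest 141 were called higher and 244 lower. By GC content, 114 of the 747 probes richest in G and C were called higher and 240 lower, against 97 higher and 74 lower of the 747 poorest. Position along the sequence divided the calls little, with 135 higher and 232 lower among 1118 probes in the first part and 166 higher and 225 lower among 1122 in the last. The part of brightness and base composition in the calls was not tested. A stretch of 15 bases was shared by probes of 18 pairs of sequences, 23 sequences in all, of which 6 were called higher and 12 lower, with Contig[0011] (described below) among them and none of the other sequences named here.

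Contig[0054] had the largest rise of the sequences whose probes all went one way. Averaged over its 4 probes, its log2 values were 3.63, 4.09, 3.89 and 3.76 in immature replicates 1 to 4, against -1.60, -1.74, -1.76 and -1.66 in foot muscle. The groups were far apart and each held within 0.5. The means were 3.84 ± 0.19 in immature teeth and -1.69 ± 0.08 in foot muscle (SD, n = 4 each), 46.3-fold higher in immature teeth (log2 difference 5.53 with an SE of 0.09, limma adjusted p = 1.32e-17). Its 4 probes lay between bases 153 and 709 of a sequence of 819 bases and were 65.5, 32.3, 65.2 and 33.3-fold higher in order of position. The probe at bases 153 to 187 had deposited values of 25.4, 36.2, 33.1 and 31.1 times the array mean in immature teeth, against 0.479, 0.413, 0.373 and 0.366 in foot muscle. Its rank was at percentile 99.6 of all probes in the median of the immature arrays and at percentile 52.3 in that of the foot muscle arrays. Without the disputed arrays the difference was 5.40 (SE 0.09, limma adjusted p = 8.82e-13). With the scanner files as recorded it was 2.71 (SE 1.50) and was no longer called (limma adjusted p = 0.169).

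Contig[0010] was close behind. Its log2 values, averaged over 5 probes, were 3.99, 3.93, 4.34 and 4.05 in immature teeth, against -0.99, -1.42, -1.63 and -1.35 in foot muscle. Foot muscle replicate 1 was the highest of its group and still far below the lowest immature array. The means were 4.08 ± 0.18 in immature teeth and -1.35 ± 0.27 in foot muscle (SD, n = 4 each), 43.0-fold higher in immature teeth (log2 difference 5.43 with an SE of 0.13, limma adjusted p = 1.05e-15). The difference was 5.49 without the disputed arrays, and 2.74 with the files as recorded (SE 1.47, limma adjusted p = 0.159).

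The 5 probes of Contig[0010] all sat between bases 873 and 1336 of its 1697 and differed more among themselves than those of Contig[0054]. They were 50.2, 28.0, 142, 14.7 and 50.1-fold higher in order of position. The 142-fold probe, at bases 1258 to 1292, had deposited values of 46.9, 69.6, 70.3 and 58.4 times the array mean in immature teeth, against 0.755, 0.476, 0.390 and 0.514 in foot muscle. Its scaled value was 6.20 in each immature array, since it held the same rank in all 4 and quantile scaling gives equal ranks equal values. The probe at bases 1276 to 1312, which shares the 17 capital bases printed above, had 4.60, 3.78, 4.82 and 4.46 in immature teeth, against 0.501, 0.300, 0.285 and 0.254 in foot muscle. The groups were apart at both probes, and the highest and the lowest fold of the sequence were thus on overlapping probes.

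On the low side, Contig[0222] stood furthest from foot muscle. Its log2 values over 5 probes were -1.88, -1.56, -1.69 and -1.59 in immature teeth, against 2.85, 2.60, 2.69 and 2.78 in foot muscle. The spread within each tissue was small beside the gap. The means were -1.68 ± 0.14 in immature teeth and 2.73 ± 0.11 in foot muscle (SD, n = 4 each), a difference of -4.41 on the log2 scale, or 21.3-fold higher in foot muscle (SE 0.07, limma adjusted p = 3.06e-17). Its probes, from base 238 to base 896 of 1045, were 34.2, 14.6, 10.6, 30.4 and 27.1-fold higher in foot muscle in order of position. At bases 238 to 272, the deposited values were 0.282, 0.247, 0.202 and 0.222 in immature teeth, against 7.96, 5.46, 6.86 and 9.11 in foot muscle. It was -4.46 without the disputed arrays. As recorded in the scanner files, the difference was -3.15 (SE 0.72) and was still called (limma adjusted p = 0.00639).

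Contig[0113] followed, with log2 values over 5 probes of -1.12, -1.32, -1.19 and -1.35 in immature teeth, against 2.27, 2.77, 2.92 and 2.50 in foot muscle. The foot muscle arrays were the more spread of the groups. The means were -1.25 ± 0.11 in immature teeth and 2.61 ± 0.29 in foot muscle (SD, n = 4 each), 14.5-fold higher in foot muscle (log2 difference -3.86, SE 0.13, limma adjusted p = 1.42e-13). Its first 4 probes, between bases 49 and 515 of 767, were 21.9, 13.6, 21.5 and 21.6-fold higher in foot muscle, and the fifth, at bases 549 to 585, was 4.66-fold higher. That last probe was also the dimmest of the 5 in foot muscle, with deposited values of 0.326, 0.188, 0.201 and 0.191 in immature teeth, against 0.721, 1.19, 1.45 and 0.921 in foot muscle. Without the disputed arrays the sequence differed by -3.74. By the scanner files as recorded, it differed by -2.96 (SE 0.50, limma adjusted p = 0.000816).

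**Figure D2:**
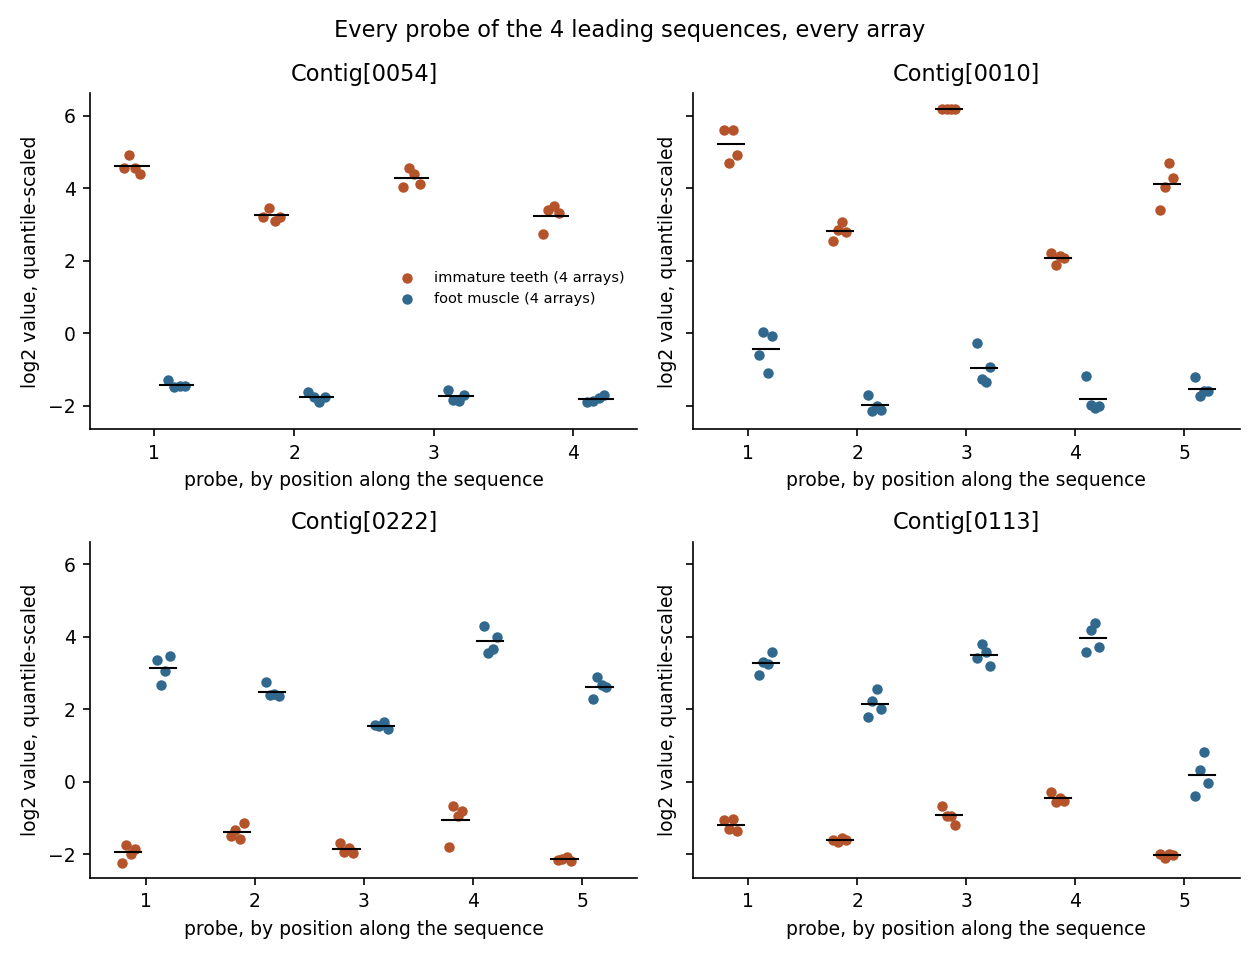
Log2 values after quantile scaling (vertical axis) of each probe, numbered along its sequence (horizontal axis), of the 4 sequences furthest apart between the tissues, with 4 immature arrays left of 4 foot muscle arrays and a bar at each mean. The immature arrays lie above the foot muscle arrays at all 9 probes of Contig[0054] and Contig[0010] and below them at all 10 probes of Contig[0222] and Contig[0113].

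Set against the other radula sections, the same probes show where immature rows also differed from the rest of the radula. A probe called neither way is not thereby shown to be shared. Of the 183 probes over 2-fold higher in immature teeth than in foot muscle, 124 were also called higher than in the iron section, 43 lower and 16 neither. Over all probes, 9.96% were called higher and 12.6% lower in immature than in iron teeth. Against the calcium section, 148 of the 183 were called higher, 29 lower and 6 neither, where 11.7% of all probes were higher and 15.8% lower. Of the 95 probes over 2-fold lower than in foot muscle, 3 were called higher, 28 lower and 64 neither against iron, and 0, 75 and 20 against calcium. With the disputed arrays left out, 123 of the 183 were higher and 39 lower than iron and 141 higher and 22 lower than calcium, and of the 95, 3 were higher and 22 lower than iron and 0 higher and 56 lower than calcium. With the files as recorded, 2 of the 183 were higher and 33 lower than iron, 1 of the 95 was higher and 1 lower, and none of either set was called against calcium. The recorded grouping mixes immature and calcium arrays, so the lack of calls against calcium does not test those differences. The recorded counts against iron rest on the same mixed immature group. The comparisons with iron and calcium share the immature arrays, so the counts are not independent and no test was made of them.

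Contig[0054] and Contig[0010] were near the foot muscle level in both mineralizing sections. Contig[0054] had a mean log2 value of -1.57 ± 0.09 in iron and -1.63 ± 0.12 in calcium teeth, and Contig[0010] of -1.20 ± 0.12 and -1.28 ± 0.18 (SD, n = 4 each). Immature teeth were higher than iron teeth by 5.41 at Contig[0054] and 5.28 at Contig[0010] on the log2 scale, and higher than calcium teeth by 5.48 and 5.36 (largest limma adjusted p = 2.50e-15). In the mean over probes, neither section was called different from foot muscle at these 2 sequences, with limma adjusted p between 0.202 and 0.654. Among their single probes, only that at bases 1258 to 1292 of Contig[0010] was called. It was higher in iron teeth than in foot muscle by 0.71 on the log2 scale (limma adjusted p = 0.0394). In the undisputed arrays, immature teeth were higher than iron teeth by 5.28 and 5.34 and higher than calcium teeth by 5.26 and 5.32, all called. With the scanner files as recorded, immature minus iron was 2.59 at each (limma adjusted p = 0.393 and 0.378), and immature and calcium teeth differed by -0.16 and -0.02 (limma adjusted p = 0.999 for both).

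Contig[0222] and Contig[0113] were lowest in immature teeth, higher in iron, higher again in calcium teeth and highest in foot muscle. The means of Contig[0222] were -1.68 in immature, -0.80 ± 0.09 in iron, 0.96 ± 0.09 in calcium teeth and 2.73 in foot muscle. Those of Contig[0113] were -1.25 in immature, 0.04 ± 0.14 in iron, 0.52 ± 0.20 in calcium teeth and 2.61 in foot muscle (SD, n = 4 each). The difference of immature from iron teeth was -0.88 at Contig[0222] and -1.29 at Contig[0113] on the log2 scale, and that from calcium teeth was -2.64 and -1.77 (largest limma adjusted p = 2.81e-07). Over the undisputed arrays, the differences were -0.95 and -1.18 from iron and -2.70 and -1.71 from calcium, all called (largest limma adjusted p = 0.00017). By the recorded files none of the 4 was called, with differences of 0.38 and -0.39 from iron and -0.11 and 0.04 from calcium at Contig[0222] and Contig[0113] (smallest limma adjusted p = 0.743).

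Outside the 4 leading sequences, and among probes that differed from foot muscle, those of PlateC-D7-5-SMART and Contig[0067] were the furthest above the iron section. The probe of PlateC-D7-5-SMART had log2 values of 4.12, 3.65, 3.58 and 3.65 in immature teeth, against -0.07, 0.17, -0.38 and 0.04 in foot muscle. It was 14.1-fold higher than in foot muscle (limma adjusted p = 1.36e-12) and higher than in iron teeth by 4.40 on the log2 scale (SE 0.14, limma adjusted p = 3.73e-13). Its iron arrays were at -0.75 to -0.56 and its calcium arrays at -0.79 to -0.31, so the iron arrays lay below every foot muscle array and the calcium arrays overlapped only the lowest of them. The other 4 probes of this clone were 2.27 to 4.14-fold higher in immature teeth than in foot muscle, all called. The probe of Contig[0067] had 1.98, 2.35, 2.43 and 2.38 in immature teeth, against -1.14, -1.56, -1.39 and -1.45 in foot muscle. It was 12.7-fold higher than in foot muscle and above iron teeth by 3.90 (SE 0.12, limma adjusted p = 4.31e-13), and each of its 5 probes was called higher in immature teeth than in foot muscle, iron and calcium teeth. With the files as recorded, neither probe was called against foot muscle (limma adjusted p = 0.332 and 0.276).

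Contig[0154] was above foot muscle in immature teeth and higher still in iron teeth. Its probe had log2 values of 0.96, 0.64, 0.65 and 0.84 in immature teeth, 3.99, 3.79, 3.73 and 3.88 in iron teeth, 1.32, 1.48, 1.02 and 1.03 in calcium teeth and -0.83, -0.83, -1.08 and -0.72 in foot muscle. The 4 tissues did not overlap. Immature teeth were 3.11-fold higher than foot muscle (limma adjusted p = 4.81e-09) and lower than iron teeth (log2 difference -3.07, SE 0.11, limma adjusted p = 2.76e-12). These calls held with the files as recorded, where the differences were 1.90 from foot muscle and -2.82 from iron. Of the 5 probes of the sequence, 3 were called above foot muscle and all 5 below iron teeth.

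Plate-A-B12-5-SMART was low in immature teeth and in foot muscle alike. Its probe had log2 values of -1.41, -1.55, -1.56 and -1.58 in immature teeth, against -1.84, -1.87, -1.84 and -1.82 in foot muscle, and 1.35 to 1.71 in iron teeth. Immature teeth were lower than iron teeth (log2 difference -3.02, SE 0.09, limma adjusted p = 1.29e-13). The 1.24-fold difference from foot muscle (limma adjusted p = 0.00948) was not called under any of the 4 other scalings, and the log2 difference turned to -0.08 with the deposited values unscaled and to -0.02 with the 75th percentile. The 4 other probes of the clone were not called between immature teeth and foot muscle.

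With the sequences described so far left out, Contig[0122] and Contig[0147] were the furthest above the calcium section. The probe of Contig[0122] had log2 values of 3.47, 3.22, 3.19 and 3.41 in immature teeth, against -0.35, -0.63, -0.49 and -0.60 in foot muscle. It was 14.3-fold higher than in foot muscle and higher than in calcium teeth by 3.85 (SE 0.13, limma adjusted p = 5.88e-13). The iron section was intermediate, at 1.57 to 2.20, and the sequence as a whole was 1.56 higher in immature than in iron teeth. The probe of Contig[0147] had 2.43, 2.04, 1.96 and 1.90 in immature teeth, against -1.52, -1.55, -1.69 and -1.77 in foot muscle. It was 13.1-fold higher than in foot muscle and higher than in calcium teeth by 3.71 (SE 0.13, limma adjusted p = 1.04e-12), with iron teeth at -0.94 to -0.37. All 9 probes of the 2 sequences were called higher in immature teeth than in each of the other tissues. With the files as recorded neither named probe was called against foot muscle (limma adjusted p = 0.272 and 0.264).

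Contig[0288] and Plate-D-B4-5-SMART were lower in immature teeth than in the 3 other tissues at their named probes. The probe of Contig[0288] had log2 values of -1.17, -1.12, -1.11 and -1.22 in immature teeth, against 0.96, 0.49, 0.41 and 0.41 in foot muscle, and 3.19 to 4.18 in calcium teeth. It was 3.29-fold higher in foot muscle (limma adjusted p = 1.87e-06), and immature teeth were below calcium teeth (log2 difference -4.79, SE 0.19, limma adjusted p = 6.26e-12). The probe of Plate-D-B4-5-SMART had -1.45, -1.18, -1.21 and -1.27 in immature teeth, against -0.61, -0.59, -0.27 and -0.59 in foot muscle, and 2.14 to 2.54 in calcium teeth. It was 1.70-fold higher in foot muscle (limma adjusted p = 2.30e-05), a call that was lost with median scaling, and immature teeth were below calcium teeth (log2 difference -3.64, SE 0.11, limma adjusted p = 1.30e-13). When the recorded scanner files were used, immature teeth were above foot muscle by 0.71 and 1.10 at these probes, with neither called (limma adjusted p = 0.790 and 0.529). Without the disputed arrays, all 8 named probes of these paragraphs kept their calls and directions against foot muscle, with log2 differences from -1.68 (Contig[0288]) to 3.91 (PlateC-D7-5-SMART) and a largest limma adjusted p of 0.0242, at Plate-A-B12-5-SMART. In the same arrays the differences from iron were 4.50, 3.77, -3.04 and -2.94 at PlateC-D7-5-SMART, Contig[0067], Contig[0154] and Plate-A-B12-5-SMART, and those from calcium were 3.81, 3.74, -4.70 and -3.52 at Contig[0122], Contig[0147], Contig[0288] and Plate-D-B4-5-SMART, all called. With the files as recorded, the differences from iron were 2.42, 2.03, -2.82 and -2.16, with the last 2 called, and those from calcium were -0.01, 0.07, 0.07 and 0.09, with none called.

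**Figure D3:**
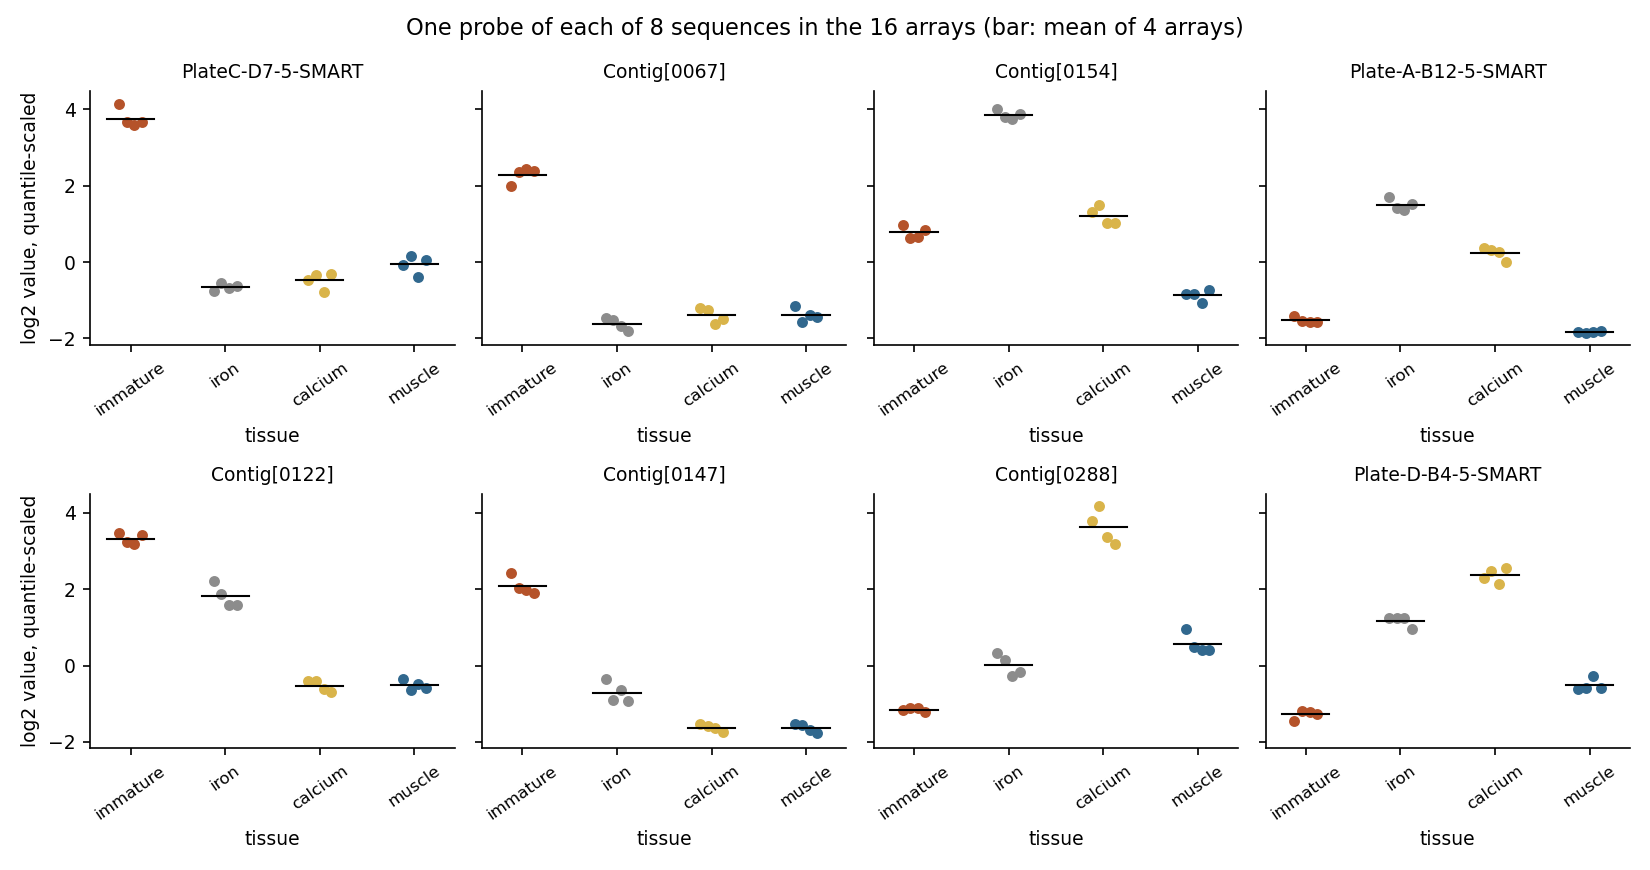
Log2 values after quantile scaling (vertical axis) of 1 probe of each of 8 sequences in the 4 arrays of immature, iron and calcium teeth and of foot muscle (horizontal axis), with a bar at each mean. The upper row holds the probes chosen by their distance between immature and iron teeth and the lower row those chosen by their distance between immature and calcium teeth, from a log2 difference of 4.40 from iron (PlateC-D7-5-SMART) to one of -4.79 from calcium (Contig[0288]).

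On 9 sequences, different probes were called in opposite directions. Contig[0099] was bright in both tissues and had 4 probes called higher by 1.53 to 2.07-fold and 1, at bases 867 to 901, called 1.52-fold higher in foot muscle (log2 difference -0.60, SE 0.09, limma adjusted p = 4.66e-05). The deposited values of that probe averaged 13.4 times the array mean in each tissue, and its difference was 0.28 with median scaling, 0.04 with the 75th percentile and 0.31 with cyclic loess, against -0.02 with the deposited values unscaled, so that its direction was not the same under all scalings. It was called under none of these 4 other scalings. The limma adjusted p was 0.623 with the median, 0.864 with the 75th percentile, 0.0698 with cyclic loess and 0.924 unscaled. Nor was it called with the array mean taken without Contig[0011] (-0.18, limma adjusted p = 0.329) or with the files as recorded (-0.10, limma adjusted p = 0.892). Without the disputed arrays it was -0.75 (limma adjusted p = 0.000224). The smallest of the 4 rises, at bases 611 to 645, was no longer called without the disputed arrays (limma adjusted p = 0.0503), without immature replicate 2 (0.0575) or without foot muscle replicate 2 (0.0655). Contig[0254] was dim and had 3 probes called 1.37 to 1.64-fold higher in foot muscle and 1, at bases 477 to 511, called 1.50-fold higher in immature teeth (limma adjusted p = 2.15e-07). That probe was also above iron teeth by 0.64 and above calcium teeth by 0.62 on the log2 scale, both called. It was no longer called between immature teeth and foot muscle with the deposited values unscaled (limma adjusted p = 0.620), with the 75th percentile (0.436), with the median (0.0581), with the array mean taken without Contig[0011] (0.964) or with the files as recorded (0.315), and was still called without the disputed arrays (log2 difference 0.57, limma adjusted p = 8.72e-05).

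The 4 leading sequences, chosen for their difference between the 2 tissues, also took different shares of the signal of an array. Of the summed deposited values, Contig[0054] took 3.60% ± 0.70 in immature teeth, against 0.0645% ± 0.0093 in foot muscle, and Contig[0010] took 6.18% ± 1.25, against 0.103% ± 0.020 (SD, n = 4 each). Contig[0222] took 0.0691% ± 0.0085 in immature teeth, against 1.47% ± 0.17 in foot muscle, and Contig[0113] took 0.0948% ± 0.018, against 1.58% ± 0.30. The brightest sequence of the platform was Contig[0011], which falls outside the naming rule and was singled out after its values were seen. The files used here do not annotate it, so what kind of RNA it stands for was not determined. Its 5 probes took 7.07, 10.2, 10.3 and 9.68% of the signal in immature teeth, against 15.8, 19.0, 21.6 and 19.8% in foot muscle. Every immature array was below every foot muscle array, with a mean difference of -9.73 percentage points (exact permutation test, two-sided, p = 0.0286, the smallest that 4 against 4 arrays can give). This and the later permutation tests took the arrays as unpaired, although both tissues came from the same animals. One probe of Contig[0011] was at the scanner maximum on 2 immature arrays and on all 4 foot muscle arrays. Another was at the maximum on 1 foot muscle array, so that these shares have only a lower bound on such arrays.

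The 22 brightest probes of each array together took 30.4% ± 3.88 of the signal in immature teeth, against 33.2% ± 3.24 in foot muscle (SD, n = 4 each; exact permutation test, two-sided, p = 0.343). The groups overlapped, and the difference of -2.82 percentage points was -1.02 without immature replicate 1 and -1.62 without foot muscle replicate 3. Without Contig[0011], an alternative chosen after seeing the data, the share was 26.0% in immature teeth, against 19.8% in foot muscle, and every immature array was above every foot muscle array (exact permutation p = 0.0286). The median probe was at -1.64 ± 0.27 in immature teeth, against -1.35 ± 0.15 in foot muscle, as log2 of its value over the array mean (difference -0.30, exact permutation p = 0.114). Without immature replicate 1, whose median was the highest of its group, the difference was -0.42 (exact permutation p = 0.0286). That array was the only immature one within the foot muscle range, so leaving it out separates the groups and gives the smallest possible p. Leaving out any other single array gave differences of -0.22 to -0.35 (exact permutation p = 0.114 to 0.257).

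**Figure D4:**
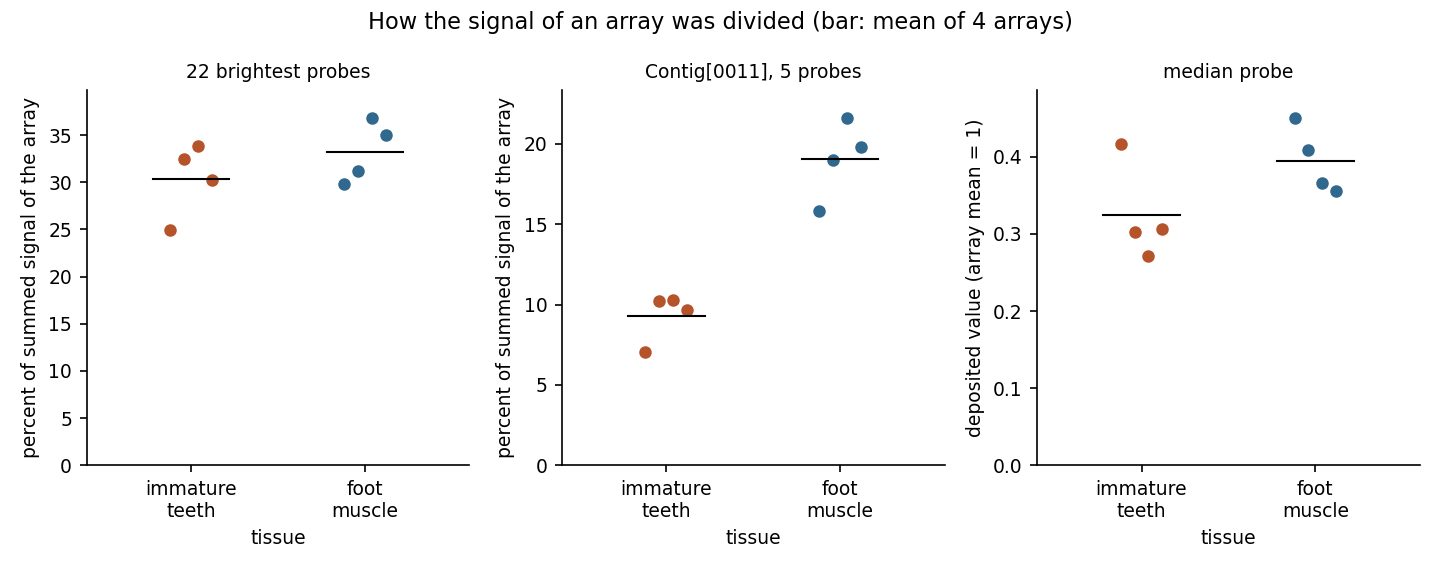
Percent of the summed signal of an array in its 22 brightest probes and on Contig[0011], and the median deposited value as a multiple of the array mean (vertical axes), for 4 immature arrays and 4 foot muscle arrays (horizontal axis), with a bar at each mean. The share on Contig[0011] separates the tissues, at 7.07 to 10.3% in immature teeth and 15.8 to 21.6% in foot muscle, and the other panels overlap.

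**Figure D5:**
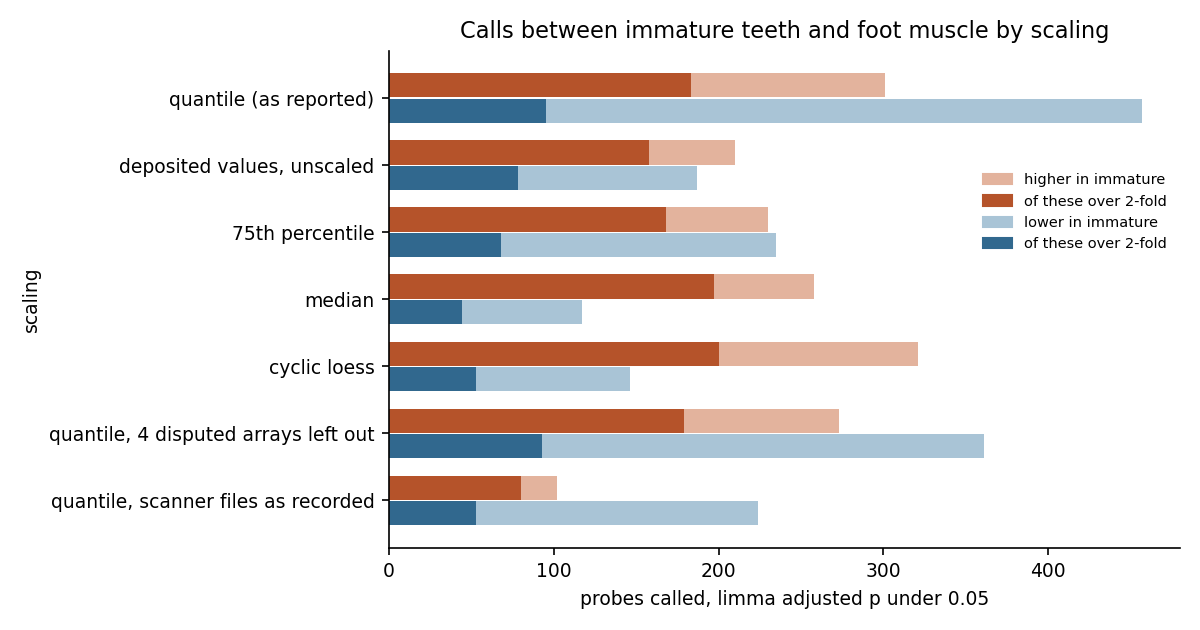
Number of probes called at a limma adjusted p under 0.05 (horizontal axis) under 5 scalings of the deposited values and under 2 other treatments of the disputed arrays (vertical axis), with the part over 2-fold in the darker colour. Probes over 2-fold higher numbered 158 to 200 under the 5 scalings and those over 2-fold lower 44 to 95, whereas all calls lower ranged from 117 to 457.

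The plot of calls by scaling sets these choices side by side. The median difference over all probes was -0.08 on the log2 scale with quantile scaling, -0.41 with the deposited values unscaled, -0.35 with the 75th percentile, -0.12 with the median and -0.01 with cyclic loess. Unscaled, 187 probes and 59 sequences were called lower. Without the disputed arrays, 273 probes were called higher and 361 lower, of which 270 and 326 were among the calls made with them. With the scanner files as recorded, 102 were called higher and 224 lower, of which 102 and 223 were among those calls.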

How the data were processed

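The authors deposited a value table whose values, set against the scanner files, are a ratio: the mean foreground of a probe over the mean of all probes of its array, linear, not background-corrected and not centred. Per the file headers, the scanner files held mean and median foreground intensity per spot and its pixel SD. The feature extraction program is not given in the sources used here. Total RNA came from a Trizol extraction and carried Cy5 from the Kreatech ampULSe kit, per the labels' protocols.

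Ratios were log2-transformed and quantile-scaled, and limma fitted 1 mean for each tissue to all 16 arrays, in R 4.3.3 with limma 3.58.1 (lmFit, eBayes, two-sided, Benjamini-Hochberg within each comparison). Sequence values were means over probes. Shares of signal used exact permutation tests. The p-values measure the spread between pooled arrays within a tissue, which limma estimated over all 4 tissues together. The members, lists and tests were chosen with earlier results of these data known.

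Named sequences followed a rule. They were the 2 highest and 2 lowest sequences by mean difference whose probes all had one sign and whose arrays did not overlap, then, among called probes, the 2 largest differences each way from iron and from calcium, 1 probe per sequence, and up to 2 sequences with probes called both ways. Same-numbered immature and foot muscle arrays deviated together (r of 0.430, 0.193, 0.345 and 0.378 across probes), so the numbers were treated as pairing the arrays, in an alternative fit. This was not confined to shared numbers. Immature replicate 2 with foot muscle replicate 4 had an r of 0.307, and immature replicate 4 with foot muscle replicate 2 one of 0.358. The remaining pairs had an r of -0.523 to 0.0995. The labels do not say that a number marks the same animals. Keyword lists of marker genes could not be applied without gene names.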

Additional observations from a re-analysis of the deposited data

Results flagged for a closer look

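Far arrays were looked for in 46 groups of 4 arrays, of which chance marks about 1 in 20. In 5 of them, 1 array stood apart from the other 3. Immature replicate 1 was far from its group at PlateC-D7-5-SMART (log2 value 4.12), Contig[0067] (1.98) and Plate-A-B12-5-SMART (-1.41). Foot muscle replicate 1 was far from its group at Contig[0288] (0.96), and foot muscle replicate 3 at Plate-D-B4-5-SMART (-0.27). Immature replicate 1 also had the highest median foreground of the 4 immature arrays, 426 units. None of these arrays reached the other tissue's range.

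The contrast with foot muscle was not the same in the immature as in the other radula sections at the named sequences, by limma's direct test between sections. Immature minus iron was 5.41 at Contig[0054], 5.28 at Contig[0010], -0.88 at Contig[0222] and -1.29 at Contig[0113] on the log2 scale, and 4.40, 3.90, -3.07 and -3.02 at the probes of PlateC-D7-5-SMART, Contig[0067], Contig[0154] and Plate-A-B12-5-SMART. Immature minus calcium was 5.48, 5.36, -2.64 and -1.77 at the same 4 contigs in the same order, and 3.85, 3.71, -4.79 and -3.64 at the probes of Contig[0122], Contig[0147], Contig[0288] and Plate-D-B4-5-SMART. The probes outside the first 4 contigs were chosen for these differences, which are therefore a description. Without the disputed arrays, the differences from calcium were 5.26, 5.32, -2.70 and -1.71 at the 4 contigs and 3.81, 3.74, -4.70 and -3.52 at the 4 probes, all called by limma, whereas none was called with the scanner files as recorded. The recorded grouping mixes immature and calcium arrays in both groups, so that lack of calls does not test the differences.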

How the results depend on the processing

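Over 871 recomputed differences of named probes and sequences, 827 kept their direction and side of the threshold, 29 lost the call and 15 changed sign. The changes of sign were at Plate-A-B12-5-SMART against foot muscle (-0.0825 unscaled, -0.0195 with the 75th percentile, -0.247 with the array mean taken without Contig[0011], an alternative chosen after seeing the data), at bases 867 to 901 of Contig[0099] (0.278 with the median, 0.0436 with the 75th percentile, 0.305 with cyclic loess), and with the scanner files as recorded. As recorded, immature minus calcium was -0.163 at Contig[0054], -0.0169 at Contig[0010], 0.0361 at Contig[0113], -0.0131 at Contig[0122], 0.0689 at Contig[0288] and 0.0936 at Plate-D-B4-5-SMART, immature minus iron was 0.384 at Contig[0222], and immature minus foot muscle was 0.708 at Contig[0288] and 1.10 at Plate-D-B4-5-SMART. The recorded grouping mixes immature and calcium arrays, so the sign of these differences from calcium carries no information. The recorded differences from iron and foot muscle rest on the same mixed immature group. At Contig[0054], the SE of immature minus foot muscle was 1.50 as recorded, against 0.09 in the main fit.

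Probes called lower (457) numbered 187 unscaled, 235 with the 75th percentile, 117 with the median, 146 with cyclic loess and 224 with files as recorded, and sequences called lower (228) numbered 59, 63, 50, 45 and 120, 146 at an adjusted p under 0.01 and 117 with the median over probes. Probes called higher (301) numbered 102 as recorded and 198 with the array mean without Contig[0011], where 597 were lower, and sequences called higher (77) numbered 33 and 50, and 50 unscaled. The share in the brightest probes differed by -6.02 percentage points for the brightest 0.5% and -9.73 for the brightest sequence (exact permutation p = 0.0286 each), and by 2.81 for the brightest 5%, 1.18 without saturated probes and 6.25 without Contig[0011]. The cause was not tested. Leaving out 1 of the 8 arrays gave 290 to 296 probes higher and 390 to 458 lower, 73 to 77 sequences higher and 176 to 220 lower. Scaling and fitting only the 8 arrays gave 297 probes higher and 423 lower, 75 sequences higher and 203 lower. The replicate block gave 325 probes higher and 684 lower, 81 sequences higher and 284 lower, so each count rose from 301, 457, 77 and 228. None moved by over 1.5 times, but the probes called lower came close to that limit. Without background measurements, signal over background limits every dim value, and 4 arrays per tissue limit the rest.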
